A study of Xenopus laevis with 42 samples.

Results

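The D1 blastomere of the Xenopus laevis embryo, grown on its own as an explant, was compared at mid neurula with the descendants that the same blastomere leaves when it stays in the embryo. The comparison takes 6 of the 42 samples of the series, 3 of explants and 3 of progeny. The rows of both tissues were matched by name, and a row entered when it reached 1 TPM (an abundance corrected for transcript length and scaled to a fixed total) in at least 1 of 14 columns, which 26351 of 44962 rows did. The authors deposited 1 pooled column per tissue and stage, so there are no replicates, and no difference below has a replicate check.

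In the explant group, per the labels, the D1 cell was cut away from the embryo and the tissue was collected at stage 17, at an age of 18 hours. The progeny group was collected at the same stage and age. The titles and the column headings give this stage as mid neurula or mid neural, whereas a short code in the descriptions reads LN, which the labels do not explain. There the D1 cell had been filled with fluorescent dye inside an otherwise whole embryo, and the fluorescent descendants were taken. Embryos of 3 frogs gave 1 sample each per group. The labels name no transgene, drug or genotype, and they do not say how many embryos were pooled in a sample. Since dissected tissue can carry neighbouring cells and an explant is a whole small tissue, each column is the sum over all cells collected, and fewer cells of a type and less RNA per cell cannot be told apart.

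Neural fate in the frog depends on signals. Ectoderm in which bone morphogenetic proteins (BMPs) are active becomes epidermis, with its ciliated, secretory and ion-transporting cells, while ectoderm that receives BMP antagonists and fibroblast growth factors (FGFs) from the dorsal mesoderm becomes neural plate. Wnt, FGF and retinoic acid signals then give the plate its anterior to posterior order, which the Hox genes record. The dorsal mesoderm itself becomes notochord, which secretes Sonic hedgehog and Chordin, and somites, which make skeletal muscle.

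At mid neurula, explants had less RNA of muscle, somite, neural plate, Hox, neuronal and neural crest genes than progeny, and more RNA of many epidermal, ciliary and ionocyte genes. On the log2(TPM + 1) scale, 3158 rows (12% of those compared) were at least 2-fold higher in explants and 3589 rows (13.6%) at least 2-fold lower. Rows past this size are called higher or lower throughout, and within or under 2-fold refers to the same scale. A 4-fold difference was reached by 1040 rows (3.95%) higher in explants and by 1011 rows (3.84%) lower. At 16-fold the balance tipped: 22 rows (0.0835%) were higher and 127 (0.482%) lower. The median difference over all rows compared was -0.13, so explant values ran slightly below progeny values. The pseudocount of 1 understates differences of rows with low values.

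**Figure D1:**
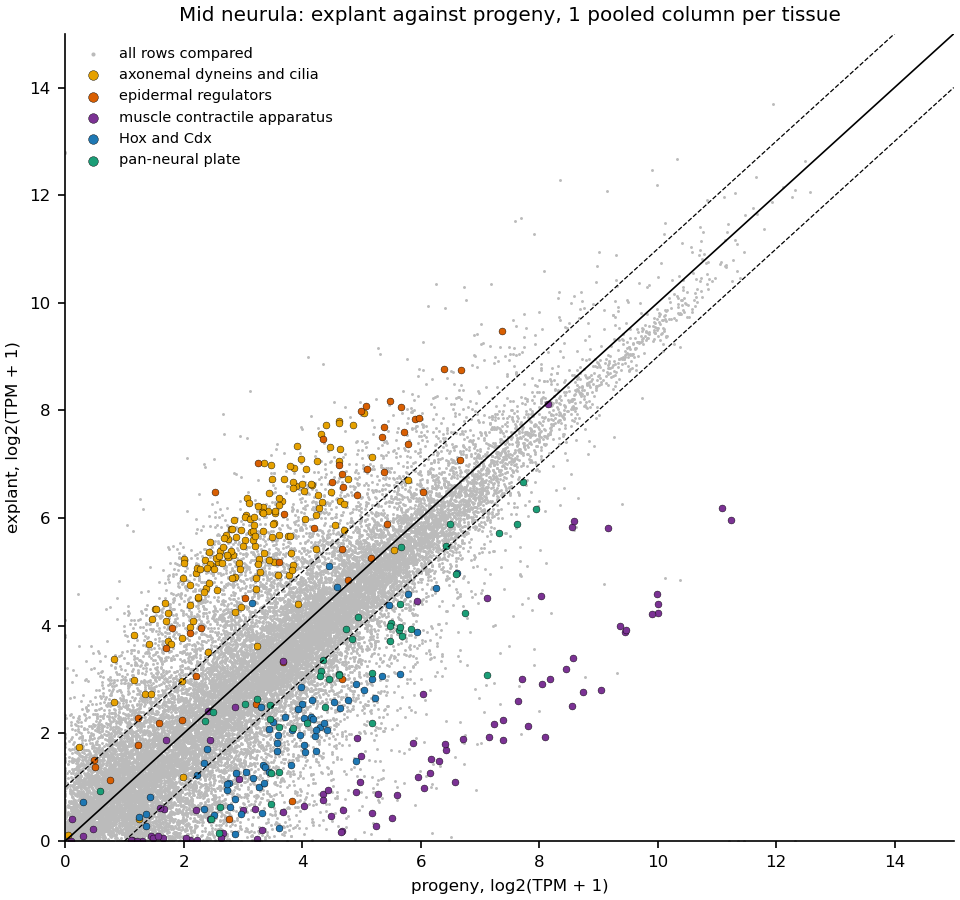
Each grey point is one of the 26351 rows compared, with the explant level on the vertical axis and the progeny level on the horizontal axis, both as log2(TPM + 1). The solid line marks equal levels and the dashed lines a 2-fold difference. Ciliary genes and epidermal regulators lie mostly above the upper dashed line, and muscle, Hox and pan-neural genes mostly below the lower one.

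The balance changed with the level of a row. Among 10208 rows with a mean of 1 to 10 TPM, 11.7% were higher in explants and 19.2% lower. Among 10092 rows with a mean of 10 to 100 TPM, 16.1% were higher and 12.7% lower. Among 126 rows with a mean of at least 1000 TPM, 14.3% were higher and 4.76% lower. The rows higher in explants held 25.8% of all explant TPM and 6.28% of all progeny TPM. The rows lower in explants held 2.85% of all explant TPM and 13.1% of all progeny TPM. As deposited, the higher set held fewer rows and a larger share of transcripts. The balance of rows turned with median-of-ratios scaling (3799 higher, 3001 lower), with a pseudocount of 5 (1971 higher, 1654 lower) and with a filter of 5 TPM at mid neurula (2620 higher, 2567 lower).

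Some rows are listed at exactly 0 in 1 tissue and at a high level in the other, and the main cases are given here. In all, 382 rows were at 0 in 1 of the mid neurula columns, and 15 of them reached 5 TPM in the other. Of the 382 rows, 31 counted as higher in explants and 84 as lower. The row counts and TPM shares above and the list counts below include them. Elongation factor row eef1a1o.S was listed at 0 in explants and at 5091 TPM in progeny, although explants had 8784 TPM at gastrula. In explants 3 keratin rows stood at 0, namely krt.S, krt5.7.L and krt5.7.S, against 2815, 2618 and 2365 TPM in progeny. The krt.S row had 9934 TPM in explants at early neurula. In the other direction, the largest cases were rows without a gene symbol, listed at 7109.5 and 7082 TPM in explants and at 0 in progeny. The row ncln.L was listed at 16.1 TPM in explants and at 0 in all progeny columns. Myosin row myh8-like.L was listed at 13.1 TPM in explants and at 0 in progeny, although progeny had 273 TPM at early neurula. Elongation factor 1 alpha is used by every cell, so a value of 0 can be a failed estimate. No fold is given for any row at 0.

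The gene lists below count rows, with the L and S copies of a gene (homeologs, the paired copies on the frog's 2 subgenomes) counted separately. A gene may stand in several lists. Each list's counts and median are to be read against 12% higher, 13.6% lower and a median of -0.13 over all rows.

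**Figure D2:**
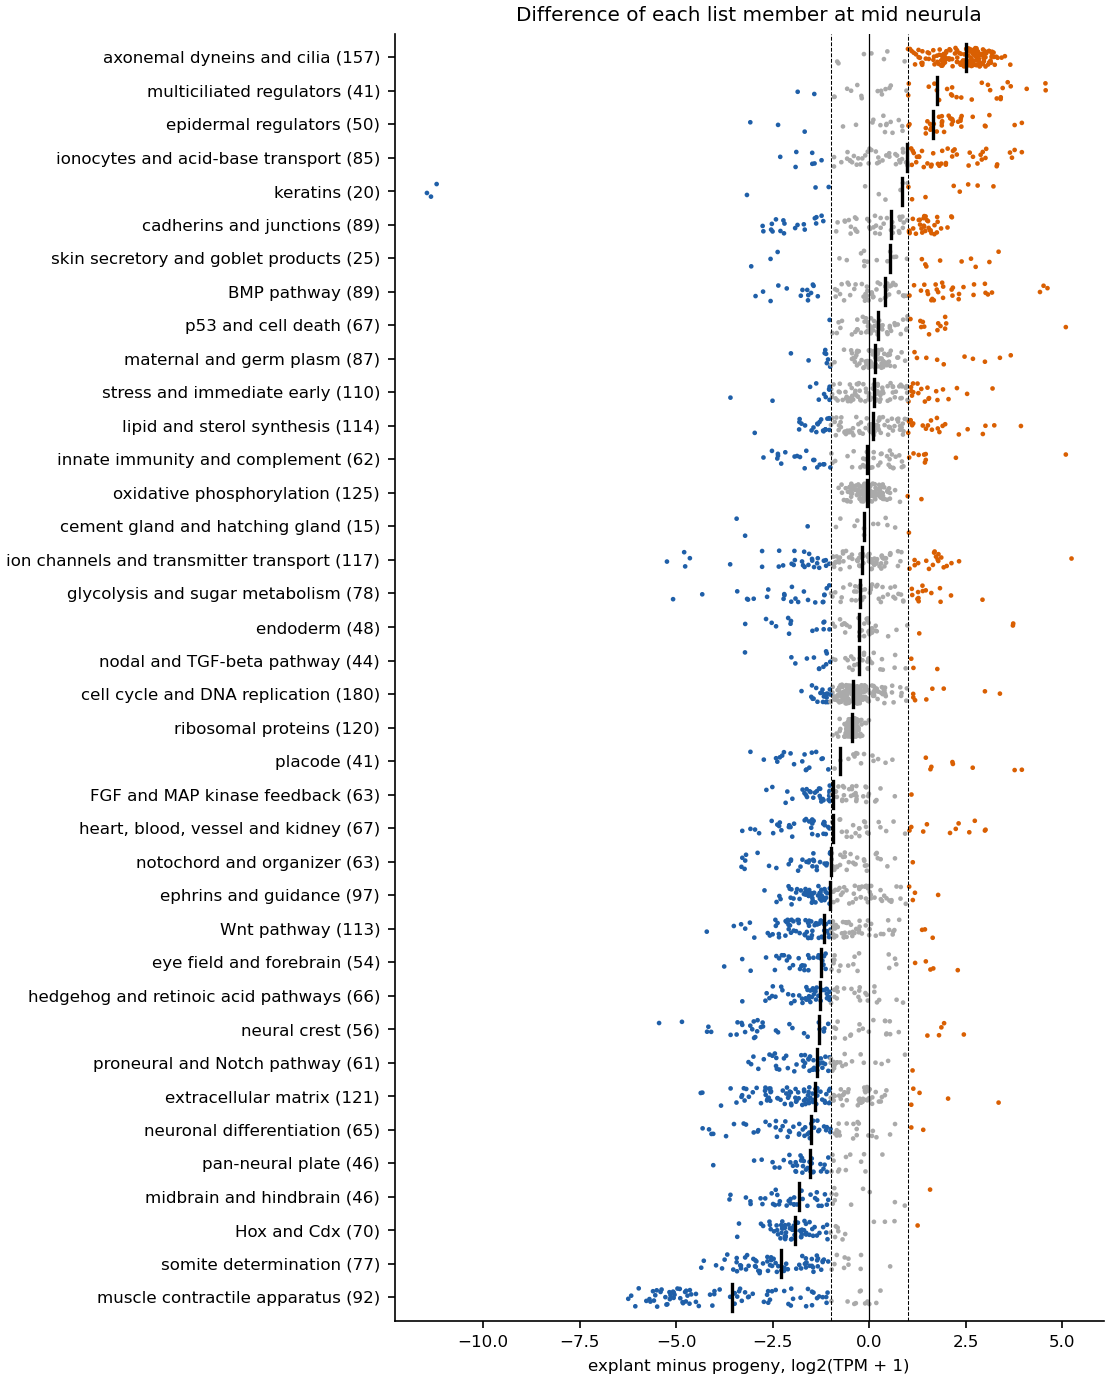
Each point is 1 row of a gene list, placed by explant minus progeny on the log2(TPM + 1) scale. Orange points are at least 2-fold higher in explants, blue points at least 2-fold lower, black bars are list medians, and the number of rows stands beside each name. The muscle list has the lowest median of the 38 lists, -3.55, and the cilia list the highest, 2.52, while 3 keratin rows at the far left are those listed at 0 in explants.

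Muscle genes gave the widest gap. Of 92 rows of the contractile apparatus, 81 were lower in explants and none was higher, with a median of -3.55. Their summed level was 912 TPM in explants and 18348 TPM in progeny, a 20.1-fold lower sum. Cardiac actin, the main sarcomeric actin of the early frog somite, had 61.2 TPM from actc1.L in explants against 2415 TPM in progeny. Its homeolog actc1.S had 71.7 TPM in explants and 2179.7 TPM in progeny. Both copies were far lower in explants than in progeny and were still detected there.

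The lowest row of the list was another actin, act3.S, with 5.95 TPM in explants and 525 TPM in progeny, a log2 difference of -6.24. Sarcalumenin, a calcium-binding protein of the sarcoplasmic reticulum, followed with srl.L at 2.81 TPM in explants and 273 TPM in progeny. Its copy srl.S had 4.66 TPM in explants and 376 TPM in progeny. Thick and thin filament parts moved with them. Myosin light chain myl1.S had 17.6 TPM in explants and 963 TPM in progeny, and fast troponin T tnnt3.S had 5.79 TPM in explants and 425 TPM in progeny. The calcium pump atp2a1.L, which refills the reticulum after contraction, had 14.1 TPM in explants and 702 TPM in progeny.

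Genes of the muscle cell beyond the sarcomere shared this pattern. Desmin, the muscle intermediate filament, had 8.16 TPM from des.1.L in explants and 348 TPM in progeny. Creatine kinase ckm.L, which buffers ATP in muscle, had 9.5 TPM in explants and 378 TPM in progeny. The acetylcholine receptor subunit chrna1.L of the future neuromuscular junction had 1.89 TPM in explants and 71.2 TPM in progeny. The calcium channel subunits cacng1.L and cacng1.S had 4.86 and 2.93 TPM in explants, against 161 and 106 TPM in progeny. The 11 rows within 2-fold included tropomyosin tpm3.S, which many cell types use, at 275 TPM in explants and 284 TPM in progeny, and junctophilin jph1.L of the muscle triad, at 4.6 TPM in explants and 6.31 TPM in progeny.

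The regulators upstream of muscle were lower as well. Of 77 rows of the somite list, 67 were lower in explants and none was higher, with a median of -2.27. MyoD, the transcription factor that commits cells to muscle, had 17.8 TPM from myod1.S in explants and 293 TPM in progeny. Its copy myod1.L had 9.11 TPM in explants and 99.96 TPM in progeny. Myf5, which acts beside MyoD, had 10.6 TPM from myf5.L in explants and 100.2 TPM in progeny. Myogenin, the later factor of muscle differentiation, was listed at 0 in explants for both copies, and myog.L had 6.76 TPM in progeny.

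Genes of the presomitic mesoderm and of segmentation were lower in the same way. The T-box factor tbx6.L, which marks presomitic mesoderm, had 16.7 TPM in explants and 109 TPM in progeny. Segment boundary regulator ripply2.S had 2.21 TPM in explants and 44 TPM in progeny. Paraxis, encoded by tcf15.S and needed for epithelial somites in mouse, had 0.869 TPM in explants and 35.4 TPM in progeny. The rows nearest to equality were hes4.L, with 107 TPM in explants and 125 TPM in progeny, and six4.L, with 34.9 TPM in explants and 40.5 TPM in progeny. Both are also expressed outside the somite.

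Notochord and organizer genes were lower by less. Of 63 rows, 31 were lower and 1 was higher, with a median of -0.99. Type II collagen of the notochord sheath had 20.2 TPM from col2a1.L in explants and 209 TPM in progeny. The BMP antagonist Chordin, chrd.S, had 51.6 TPM in explants and 173 TPM in progeny. Sonic hedgehog, shh.L, had 13.3 TPM in explants and 37.5 TPM in progeny. The notochord factor Brachyury did not reach 2-fold on the log2(TPM + 1) scale for either copy: t.L had 11.7 TPM in explants and 23.7 TPM in progeny, and t.S had 19.6 TPM in explants and 35.8 TPM in progeny. Noggin, a second BMP antagonist, had 13.9 TPM from nog.L in explants and 9.74 TPM in progeny, and 3.24 TPM from nog.S in explants and 6.73 TPM in progeny. The 2 Noggin copies thus lay on different sides of equality without passing the size rule.

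Other mesoderm and endoderm gave a mixed picture. Of 67 rows of the heart, blood, vessel and kidney list, 32 were lower and 11 higher. Among the lower rows, kidney factor pax8.L had 0.131 TPM in explants and 8.53 TPM in progeny, blood factor lmo2.S had 7.4 TPM in explants and 81 TPM in progeny, and the apelin receptor aplnr.S had 22.9 TPM in explants and 119 TPM in progeny. The highest rows were gata2.L, at 271 TPM in explants and 32.6 TPM in progeny, and gata2.S, at 254 TPM in explants and 30.8 TPM in progeny. Gata2 serves blood and also the ventral ectoderm that becomes epidermis. Heart factor nkx2-3.S had 42.8 TPM in explants and 5.56 TPM in progeny, whereas nkx2-5.S had 16.5 TPM in explants and 11.8 TPM in progeny, which is under 2-fold.

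Of 48 endoderm rows, 31 were within 2-fold, 14 lower and 3 higher, with a median of -0.26. The lower share was above the 13.6% over all rows, and the higher share was below the 12%. Levels were low, with a median of 1.67 TPM in explants and 4.04 TPM in progeny. The endoderm factor sox17a.L had 7.68 TPM in explants and 12.3 TPM in progeny, which is under 2-fold. The row darmin.L was lower, with 2.42 TPM in explants and 13.6 TPM in progeny. All 3 higher rows were regulators with other sites of expression: sox7.S had 77.9 TPM in explants and 4.92 TPM in progeny, sox7.L had 43.1 TPM in explants and 2.33 TPM in progeny, and hhex.L had 5.15 TPM in explants and 1.5 TPM in progeny.

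Neural plate genes were lower in explants with no row higher. Of 46 pan-neural rows, 34 were lower, with a median of -1.53 and a summed level of 749 TPM in explants and 2189.7 TPM in progeny. Sox2, the transcription factor that defines neural progenitors, had 100.2 TPM from sox2.S in explants and 209.6 TPM in progeny, a log2 difference of -1.06. Sox3, its close relative, had 70.9 TPM from sox3.S in explants and 246 TPM in progeny. Both SoxB1 factors were lower in explants, sox2.S only just past the 2-fold limit, and both were still detected there. Zic1, a zinc finger factor of the neural plate and its border, was further down, with 3.56 TPM from zic1.L in explants and 35 TPM in progeny. N-cadherin, the neural adhesion protein, had 17.9 TPM from cdh2.L in explants and 106 TPM in progeny. Nearer to equality were sall4.L, at 43.2 TPM in explants and 50 TPM in progeny, and the early neural factor geminin, gmnn.S, at 58.3 TPM in explants and 88.9 TPM in progeny.

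Regional genes differed along the axis. Of 54 eye field and forebrain rows, 33 were lower and 5 higher, with a median of -1.24. Otx2, the head factor, was within 2-fold for both copies, with 85.5 TPM from otx2.L in explants and 111 TPM in progeny and 34 TPM from otx2.S in explants and 57.6 TPM in progeny. Six3, a forebrain factor, was likewise within 2-fold, with 33.7 TPM from six3.L in explants and 41.7 TPM in progeny. The eye field factor Rax had 31.4 TPM from rax.L in explants and 69.8 TPM in progeny, and Pax6 had 13.2 TPM from pax6.L in explants and 44.4 TPM in progeny. Both Rax and Pax6 were lower. Later eye genes were lower by more, such as mab21l2.L with 0.729 TPM in explants and 22.3 TPM in progeny and six6.L with 1.4 TPM in explants and 19.2 TPM in progeny.

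The higher members of that list were hesx1.L and both copies of tbx3 and dlx5. Tbx3 had 91.3 TPM from tbx3.S in explants and 17.8 TPM in progeny. Dlx5, a gene of the non-neural ectoderm and neural plate border, had 164 TPM from dlx5.L in explants and 54 TPM in progeny. Hesx1, an anterior neural plate and pituitary factor, had 69.7 TPM from hesx1.L in explants and 29.9 TPM in progeny.

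Midbrain and hindbrain genes were lower for 35 of 46 rows and higher for 1, with a median of -1.81. Engrailed 2, which marks the midbrain-hindbrain boundary, had 0.219 TPM from en2.S in explants and 14 TPM in progeny. Krox20, encoded by egr2.L and marking alternate hindbrain segments, had 0.879 TPM in explants and 21.7 TPM in progeny. Both were close to the bottom of the range in explants. Irx3 had 3.26 TPM from irx3.S in explants and 37.9 TPM in progeny. Meis3, a Hox cofactor that promotes hindbrain fate, was within 2-fold for both copies, with 67.9 TPM from meis3.S in explants and 67 TPM in progeny and 50 TPM from meis3.L in explants and 94.4 TPM in progeny. The higher row was irx4.S, with 6.87 TPM in explants and 1.63 TPM in progeny.

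Hox and Cdx rows, the genes of posterior identity, were lower for 59 of 70 rows and higher for 1, with a median of -1.91. The summed level was 358 TPM in explants and 1229 TPM in progeny. The decrease covered anterior and posterior paralogs alike: hoxb2.L had 0.433 TPM in explants and 9 TPM in progeny, hoxd4.L had 1.81 TPM in explants and 29 TPM in progeny, and hoxc10.S had 3.56 TPM in explants and 19.7 TPM in progeny. The trunk marker hoxb9.S had 13.7 TPM in explants and 60 TPM in progeny. Cdx4, an activator of posterior Hox genes, had 30.6 TPM from cdx4.L in explants and 97.1 TPM in progeny.

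Genes of neurogenesis and of neurons were lower too. Of 61 proneural and Notch pathway rows, 41 were lower and 1 higher, with a median of -1.35. Neurogenin 2, the factor that starts primary neuron formation, had 0.86 TPM from neurog2.L in explants and 5.85 TPM in progeny. Its downstream factor neurod4.L had 1.05 TPM in explants and 16 TPM in progeny. The Notch ligand dll1.L had 19.7 TPM in explants and 55.2 TPM in progeny, and the Notch target hes5.1.L had 9.77 TPM in explants and 57.5 TPM in progeny. Proneural factors, ligand and target were lower alike. The Notch feedback gene nrarp.L, with 86.9 TPM in explants and 164 TPM in progeny, was under 2-fold. Its copy nrarp.S was lower, with 60 TPM in explants and 134 TPM in progeny.

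Of 65 neuronal rows, 43 were lower and 2 higher, with a median of -1.50. Neuronal tubulin tubb3.L had 0.343 TPM in explants and 25.7 TPM in progeny. Peripherin, an intermediate filament of sensory and motor neurons, had 0.871 TPM from prph.S in explants and 30.8 TPM in progeny. The synaptic vesicle protein gene syt13.S had 0.00936 TPM in explants and 16.9 TPM in progeny. Tubulin tubb2b, the classical frog neural tubulin, was uneven between copies, with 51.7 TPM from tubb2b.L in explants and 158 TPM in progeny and 7.47 TPM from tubb2b.S in explants and 138 TPM in progeny. Both higher rows were Islet 1, which marks sensory and motor neurons and also the heart field, with 45.1 TPM from isl1.L in explants and 20.6 TPM in progeny and 37.1 TPM from isl1.S in explants and 13.4 TPM in progeny.

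The neural crest and placode lists held both lower and higher rows. Of 56 neural crest rows, 32 were lower and 5 higher, with a median of -1.29. Sox10, the defining factor of migrating crest, was close to 0 in explants, at 0.015 TPM from sox10.L and 0.0222 TPM from sox10.S, against 43.2 and 28.5 TPM in progeny. Foxd3 had 1.25 TPM from foxd3.L in explants and 40.3 TPM in progeny, and Slug, encoded by snai2.L, had 6.11 TPM in explants and 120.2 TPM in progeny. All 3 of these crest factors were lower in explants for the rows given. Other lower crest rows belong to genes that stand in further lists too, such as zic1.L, pax3.L and tfap2e.S. The higher members, dlx2, tfap2c and msx2.L, are also genes of non-neural ectoderm. Dlx2.L had 49.9 TPM in explants and 8.29 TPM in progeny, and tfap2c.S had 228 TPM in explants and 58.5 TPM in progeny. Tfap2a and Msx1, which act at the plate border and in epidermis, were within 2-fold for both copies, with 58.1 TPM from tfap2a.L in explants and 42.2 TPM in progeny and 134 TPM from msx1.L in explants and 100.5 TPM in progeny.

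Of 41 placode rows, 19 were lower and 8 higher, with a median of -0.74. The preplacodal factor Eya1 was lower, with eya1.L at 5.09 TPM in explants and 18 TPM in progeny. The rows six4.L and pitx1.L were within 2-fold, with pitx1.L at 62.9 TPM in explants and 53.3 TPM in progeny. All 8 higher rows (both copies of dlx3, dlx5, foxi1 and gata3) belong to genes that epidermis expresses as well.

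Epidermal regulators were higher in explants. Of 50 rows, 33 were higher and 3 lower, with a median of 1.65, and their summed level was 5667 TPM in explants and 1471 TPM in progeny. Tp63, the master factor of stratified epithelium, had 94.2 TPM from tp63.L in explants and 24.8 TPM in progeny, and 112 TPM from tp63.S in explants and 24.5 TPM in progeny. Grainyhead-like 1, an activator of epidermal keratin, had 176 TPM from grhl1.S in explants and 19.4 TPM in progeny. Trim29 had the highest level in the list, with 709 TPM from trim29.L in explants and 164 TPM in progeny. Among the lower rows were tfap2e.S, with 0.677 TPM in explants and 13.2 TPM in progeny, and its copy tfap2e.L.

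Keratin rows held the largest transcript mass of any epidermal list. Epidermal keratin krt12.S had 6538 TPM in explants and 1282 TPM in progeny, which was the highest explant level of the named epidermal rows. Larval epidermal keratin xk81a1 followed, with 5697 TPM from xk81a1.L in explants and 960.0 TPM in progeny and 4651 TPM from xk81a1.S in explants and 1016 TPM in progeny. Of the simple epithelial keratins, which early ectoderm makes, krt8.L was within 2-fold, with 2275 TPM in explants and 1695 TPM in progeny. Its partner row krt18.S was lower, with 598 TPM in explants and 1236 TPM in progeny. Over 20 keratin rows, 8 were higher and 6 lower, and 3 of the lower rows are the ones listed at 0 in explants. Another lower row was krt16.S, with 5.58 TPM in explants and 58 TPM in progeny.

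Secreted products of the larval skin were partly higher, with 9 of 25 rows higher and 3 lower. Hyaluronan synthase has1.S had 2469 TPM in explants and 240.3 TPM in progeny, 10.3-fold. The other hyaluronan synthase, has2, which mesenchyme uses, went the other way, with 5.73 TPM from has2.L in explants and 38.5 TPM in progeny. Intelectin, a lectin of the mucus that goblet cells secrete, had 2868 TPM from itln1.L in explants and 1111 TPM in progeny. The serine protease row xepsin.L had 274 TPM in explants and 43 TPM in progeny. Agr2, a disulfide isomerase of secretory cells and the cement gland, was within 2-fold, with 2108 TPM from agr2.S in explants and 1516 TPM in progeny and 1259 TPM from agr2.L in explants and 1381 TPM in progeny.

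Ciliary genes were higher almost without exception. Of 157 rows of axonemal dyneins and other cilia genes, 150 were higher and none was lower, with a median of 2.52. Their summed level was 9132 TPM in explants and 1558 TPM in progeny, a 5.86-fold sum. The axonemal dynein light chain dnali1.S had 246 TPM in explants and 31.8 TPM in progeny. Outer arm intermediate chain dnai1.L had 119 TPM in explants and 15.6 TPM in progeny, and the radial spoke gene rsph1.L had 221 TPM in explants and 23.7 TPM in progeny. Basal body centrin cetn4.L had the widest gap of the list, with 128 TPM in explants and 9.25 TPM in progeny. Motor, spoke and basal body genes were higher alike. The 7 rows within 2-fold included kif3a.L, an intraflagellar motor of all cilia, with 11.2 TPM in explants and 8.37 TPM in progeny, and cfap77.S, with 41.5 TPM in explants and 45.7 TPM in progeny.

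The programme that makes multiciliated cells was higher as well, with 25 of 41 rows higher, 2 lower and a median of 1.76. Cyclin O, needed to multiply centrioles, had 182 TPM from ccno.L in explants and 6.72 TPM in progeny, and 136 TPM from ccno.S in explants and 4.72 TPM in progeny. Its genomic neighbour cdc20b.L, which also acts in centriole amplification, had 69.2 TPM in explants and 3.13 TPM in progeny. Foxj1, the activator of motile cilia genes, had 204 TPM from foxj1.S in explants and 18.3 TPM in progeny, and 55.6 TPM from foxj1.L in explants and 15.8 TPM in progeny. The transcription factor Myb had 17.3 TPM from myb.S in explants and 1.08 TPM in progeny. The lower rows were both copies of rfx4, a neural member of the Rfx family, with 6.46 TPM from rfx4.L in explants and 25.9 TPM in progeny. Its relative Rfx2, which serves motile cilia, had 64.1 TPM from rfx2.L in explants and 30.9 TPM in progeny.

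Ionocytes, the acid and ion transporting cells of the skin, gave 40 higher and 7 lower of 85 rows, with a median of 0.99. Their determinant Foxi1 had 129 TPM from foxi1.L in explants and 8.51 TPM in progeny, and 88.5 TPM from foxi1.S in explants and 4.75 TPM in progeny. Within the proton pump, subunits used by specialised cells were higher, such as atp6v1b1.L with 144 TPM in explants and 10.1 TPM in progeny and atp6v1g3.L with 128 TPM in explants and 14.8 TPM in progeny. Of the widely used subunits, atp6v0c.L was also higher, with 278 TPM in explants and 89.7 TPM in progeny, while atp6v1a.L was within 2-fold, with 14.2 TPM in explants and 18 TPM in progeny. Carbonic anhydrase 12 had 199.5 TPM from ca12.L in explants and 15 TPM in progeny, while ca14.L had 5.56 TPM in explants and 31.4 TPM in progeny.

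In the cement and hatching gland list, 11 of 15 rows were within 2-fold, 1 was higher and 3 lower. The lower rows were both copies of Pax3, at 3.91 TPM from pax3.L in explants and 52 TPM in progeny, and prdm1.L, at 9.16 TPM in explants and 29.6 TPM in progeny. Pax3 acts in the neural plate border, crest and somites as well as in the hatching gland.

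**Figure D3:**
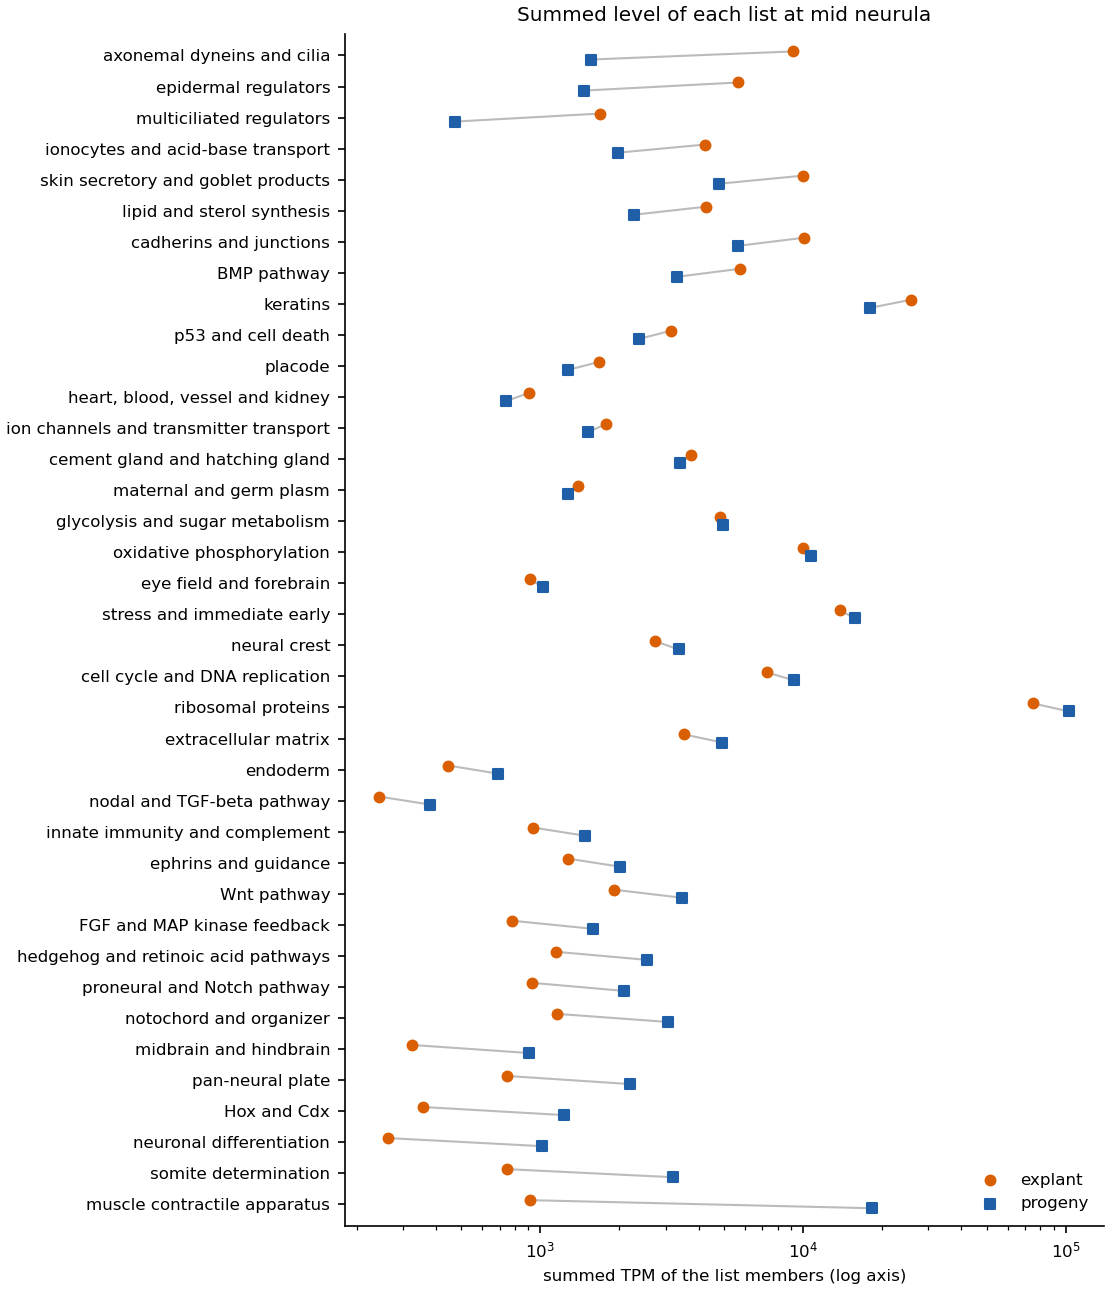
Summed TPM of the rows of each list at mid neurula, on a log axis, with explants as orange circles above and progeny as blue squares below. Lists are ordered by the ratio of the sums, from 5.86-fold higher in explants for cilia to 20.1-fold lower for the muscle list.

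BMP pathway rows were more often higher than lower. Of 89 rows, 30 were higher and 14 lower, with a median of 0.42. Among the ligands, bmp4.S had 77.8 TPM in explants and 14.7 TPM in progeny, bmp7.1.S had 62 TPM in explants and 8.66 TPM in progeny, and bmp7.2.L had 53.4 TPM in explants and 1.21 TPM in progeny. Other ligands were lower, such as gdf6.L with 0.529 TPM in explants and 9.27 TPM in progeny and bmp5.L with 0.496 TPM in explants and 7.78 TPM in progeny. The ligands went in both directions. The type I receptor bmpr1a.L had 23.4 TPM in explants and 19 TPM in progeny, while the related type I receptor gene bmpr1b.S had 4.66 TPM in explants and 42.5 TPM in progeny.

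Some feedback and target genes of BMP were among the highest rows of the comparison. Sizzled, a ventral feedback inhibitor that blocks the proteases cleaving Chordin, had 467 TPM from szl.L in explants and 19.4 TPM in progeny, 24.1-fold. Its copy szl.S had 179 TPM in explants and 7.38 TPM in progeny. The decoy receptor Bambi had 285 TPM from bambi.L in explants and 30.4 TPM in progeny. Inhibitory Smad smad7.L had 41 TPM in explants and 8.4 TPM in progeny, and the target id2.S had 429.9 TPM in explants and 64.4 TPM in progeny. Id3, also a target, was within 2-fold, with 734 TPM from id3.S in explants and 549 TPM in progeny. Ventx1.1, a ventral homeobox target that represses neural genes, had 14.4 TPM from ventx1.1.S in explants and 2.5 TPM in progeny.

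Rows of the other signalling lists were mainly lower. In the Wnt list, 63 of 113 rows were lower and 3 higher, with a median of -1.16. The ligands wnt4.L, at 1.59 TPM in explants and 28.4 TPM in progeny, and wnt8b.S, at 0.534 TPM in explants and 8.47 TPM in progeny, were lower. So were the target axin2.L, at 3.34 TPM in explants and 21 TPM in progeny, and the secreted inhibitor wif1.S, at 1.09 TPM in explants and 37.6 TPM in progeny. The central effector beta-catenin was within 2-fold, with 355 TPM from ctnnb1.S in explants and 513 TPM in progeny. All 3 higher rows belong to the planar polarity branch: vangl1.L had 49.6 TPM in explants and 15.1 TPM in progeny, its copy vangl1.S had 39.9 TPM in explants and 14.8 TPM in progeny, and the Frizzled receptor fzd6.L had 42.3 TPM in explants and 14.9 TPM in progeny.

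Of 63 FGF rows, 28 were lower and 1 higher, with a median of -0.94. The receptor fgfr1.L had 40.3 TPM in explants and 131 TPM in progeny, and fgfr4.L had 25.8 TPM in explants and 87.7 TPM in progeny. The ligand fgf8.L had 8.95 TPM in explants and 24.4 TPM in progeny. Feedback inhibitors followed in part, with spry2.S at 7.86 TPM in explants and 23.1 TPM in progeny, whereas dusp6.L, at 24.2 TPM in explants and 33.3 TPM in progeny, was within 2-fold. Receptor fgfr2.L, which epidermis also uses, had 27.5 TPM in explants and 34.9 TPM in progeny.

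Of 66 hedgehog and retinoic acid rows, 43 were lower and none higher, with a median of -1.28. The hedgehog effector gli1.S had 1.82 TPM in explants and 15.9 TPM in progeny. Raldh2, the enzyme that makes retinoic acid in the trunk mesoderm, had 5.79 TPM from aldh1a2.L in explants and 37.8 TPM in progeny. The degrading enzyme Cyp26c1 was lower too, with 12.3 TPM from cyp26c1.L in explants and 70.7 TPM in progeny. The retinoic acid receptor rarg.L was within 2-fold, with 129.9 TPM in explants and 154 TPM in progeny, while its copy rarg.S was lower, with 85.8 TPM in explants and 201 TPM in progeny. Nodal and TGF-beta rows had 12 of 44 lower and 3 higher, and their median of -0.27 lay near that of all rows. The extracellular regulator ltbp1.S was the lowest of them, with 1.4 TPM in explants and 21.3 TPM in progeny.

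Cell surface and matrix genes also divided. Of 89 cadherin and junction rows, 33 were higher and 19 lower, with a median of 0.57. E-cadherin, the epithelial adhesion protein, had 587 TPM from cdh1.S in explants and 143 TPM in progeny. Among tight junction rows, those higher included cldn4.L at 743 TPM in explants and 218 TPM in progeny and ocln.S at 106 TPM in explants and 23.5 TPM in progeny, while cldn7.S, at 196 TPM in explants and 106 TPM in progeny, was within 2-fold. Desmosomal dsp.L had 203 TPM in explants and 58.7 TPM in progeny. The lower rows included the neural and mesodermal cadherins, such as cdh11.L with 1.29 TPM in explants and 14.5 TPM in progeny and the paraxial protocadherin pcdh8.2.L with 30.2 TPM in explants and 143 TPM in progeny. C-cadherin, the maternal cadherin of the early embryo, was within 2-fold, with cdh3.L at 95 TPM in explants and 148 TPM in progeny.

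Of 121 extracellular matrix rows, 75 were lower and 5 higher, with a median of -1.41. Fibronectin had 54.1 TPM from fn1.S in explants and 383 TPM in progeny, and fibrillin 3 had 21.9 TPM from fbn3.L in explants and 223 TPM in progeny. Periostin postn.S had 0.811 TPM in explants and 36.3 TPM in progeny, and the elastic fibre gene efemp2.L had 5.33 TPM in explants and 126 TPM in progeny. Structural and adhesive matrix genes were lower alike. The 5 higher rows were has1.S, given above, mmp11.L, mmp1.S, col17a1.L and col16a1.S. Apart from has1.S these were low in level, the highest being mmp11.L, with 4.4 TPM in explants and 0.307 TPM in progeny. In the ephrin and guidance list, 49 of 97 rows were lower and 4 higher, with a median of -1.02. Semaphorin sema3a.L had 5.53 TPM in explants and 41.7 TPM in progeny, and the receptor epha4.L had 31 TPM in explants and 88.2 TPM in progeny. Plexin plxna2.L was higher, with 53.9 TPM in explants and 14.9 TPM in progeny.

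Metabolic genes differed by isoform. Of 78 glycolysis and sugar metabolism rows, 24 were lower and 14 higher, with a median of -0.23. Several lower rows are forms used in muscle: pgam2.L had 0.345 TPM in explants and 44.5 TPM in progeny, and muscle glycogen phosphorylase pygm.S had 60.4 TPM in explants and 383 TPM in progeny. Enolase eno1.L had 26.4 TPM in explants and 548 TPM in progeny, while its copy eno1.S had 47.8 TPM in explants and 56.1 TPM in progeny. Gapdh split in the same manner, with 75.8 TPM from gapdh.S in explants and 675 TPM in progeny and 29 TPM from gapdh.L in explants and 31.9 TPM in progeny. Higher rows included enzymes of amino sugar synthesis and gluconeogenesis: gfpt1.L, the first enzyme of hexosamine synthesis, had 1169.9 TPM in explants and 323 TPM in progeny, fbp1.L had 656 TPM in explants and 214 TPM in progeny, and hexokinase hk2.S had 141 TPM in explants and 17.5 TPM in progeny.

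Of 114 lipid rows, 22 were higher and 22 lower, yet the summed level was 4282 TPM in explants and 2266 TPM in progeny. Higher rows included enzymes of very long chain fatty acids and ceramides, with elovl7.L at 904 TPM in explants and 255 TPM in progeny, elovl2.L at 111 TPM in explants and 6.34 TPM in progeny, ceramide synthase cers2.L at 152 TPM in explants and 29.6 TPM in progeny, and serine palmitoyltransferase sptlc3.S at 88.3 TPM in explants and 10.6 TPM in progeny. Among sterol genes, dhcr7.S had 163 TPM in explants and 272 TPM in progeny, and hmgcs1.L had 5.99 TPM in explants and 8.48 TPM in progeny, both under 2-fold. The fatty acid binding protein gene of muscle, fabp3.S, had 3.01 TPM in explants and 30.3 TPM in progeny.

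Channels and transporters had 19 of 117 rows higher and 30 lower. The row slc6a3.S, a member of the neurotransmitter transporter family, had 327 TPM in explants and 7.63 TPM in progeny, a plain TPM ratio of 42.8. Its log2(TPM + 1) difference of 5.25 was the second highest of the named rows, although rows with lower levels had larger plain ratios. The cation channels trpm5.S, at 124 TPM in explants and 35.4 TPM in progeny, and trpv5.L, at 48.9 TPM in explants and 13.4 TPM in progeny, were higher. The glutamate transporter of glia, slc1a3.L, had 0.584 TPM in explants and 58.8 TPM in progeny. In the innate immunity list, 19 of 62 rows were lower and 9 higher. Complement c3.L had 82.1 TPM in explants and 402 TPM in progeny, whereas the death ligand row tnfsf10l.L had 81.1 TPM in explants and 1.4 TPM in progeny. Chemokine cxcl12.S was higher, at 39.1 TPM in explants and 7.42 TPM in progeny.

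Stress and immediate early genes respond to injury among other things. Of 110 rows, 79 were within 2-fold, 20 higher and 11 lower, with a median of 0.13. The higher share was above the 12% over all rows, and the lower share was below the 13.6%. The immediate early genes fos.S, at 7.56 TPM in explants and 4.39 TPM in progeny, and egr1.L, at 1.53 TPM in explants and 2.42 TPM in progeny, were within 2-fold. Higher rows included junb.S, at 30.4 TPM in explants and 9.78 TPM in progeny, the damage-inducible gadd45a.S, at 119.7 TPM in explants and 34.4 TPM in progeny, and the chemokine cxcl8.S, at 8.32 TPM in explants and 0.0143 TPM in progeny. Also higher were zfp36.L, at 20.2 TPM in explants and 3.37 TPM in progeny, and klf2.L, at 7.8 TPM in explants and 0.513 TPM in progeny. Heat shock gene hspa8.S had 4349 TPM in explants and 5096 TPM in progeny, and hmox1.L was lower, with 69.8 TPM in explants and 158 TPM in progeny. Of 67 p53 and cell death rows, 13 were higher and 1 lower. The effector caspase row casp6.L, at 139 TPM in explants and 34 TPM in progeny, was higher, as was the desmosomal p53 target perp.S, at 578 TPM in explants and 214 TPM in progeny. The p53 targets cdkn1a.L, at 27.5 TPM in explants and 23.4 TPM in progeny, and mdm2.L, at 17.8 TPM in explants and 16.2 TPM in progeny, were within 2-fold.

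Genes of general cell function differed little. None of 120 ribosomal protein rows passed 2-fold, and all 120 lay below 0, with a median of -0.44, although 5 of them lay above 0 when the explant column was scaled to the progeny column by the median of ratios. That scaling moved every explant value up by 0.20 on the log2 scale. As deposited, the rows summed to 75181 TPM in explants and 103086 TPM in progeny. The lowest was rpl39.L, with 127 TPM in explants and 245 TPM in progeny, and rps29.S was near equality, with 219 TPM in explants and 231 TPM in progeny. Oxidative phosphorylation had 123 of 125 rows within 2-fold and a median of -0.06, which became 0.13 with that scaling. Among 180 cell cycle rows, 8 were higher and 20 lower, with a median of -0.41. Some replication genes were lower, such as pcna.L with 146 TPM in explants and 344 TPM in progeny and mcm4.S with 23.2 TPM in explants and 67.4 TPM in progeny. The highest of the list was cyclin A1, with 88.2 TPM from ccna1.S in explants and 7.51 TPM in progeny.

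Of 87 maternal and germ plasm rows, 69 were within 2-fold, 10 higher and 8 lower, with both of the latter shares below those over all rows. Of the 10 higher rows, pou5f3.1.L, an Oct4-related factor, had 204 TPM in explants and 36 TPM in progeny. Its level was low before gastrula, with 0.661 TPM in explants and 1.45 TPM in progeny at blastula. At gastrula it was 749 TPM in explants and 1047 TPM in progeny. Another higher row was fbxo43.L, a meiotic regulator that multiciliated cells also express, with 41.9 TPM in explants and 2.37 TPM in progeny. The lowest row was trim36.L, a dorsalising maternal factor, with 3.25 TPM in explants and 16.3 TPM in progeny. The germ plasm helicase ddx4.L had 65.1 TPM in explants and 33.6 TPM in progeny, under 2-fold.

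Further rows were named by the size of their difference alone. The highest of them on the log2(TPM + 1) scale was tbc1d24.2.L, with 245 TPM in explants and 5.29 TPM in progeny, a plain TPM ratio of 46.3. The row val.L had 507 TPM in explants and 16.1 TPM in progeny. The chitobiase row ctbs.S, an enzyme that cleaves sugar chains, had 1307 TPM in explants and 75.2 TPM in progeny, 17.4-fold. Tubulin tubb4b.S, a major tubulin of cilia, had 1298 TPM in explants and 145 TPM in progeny. The ferritin row ftmt.S had 3854 TPM in explants and 1832 TPM in progeny. Among the rows that lost most TPM, the RNA-binding cirbp.S had 4249 TPM in explants and 6116 TPM in progeny. The methyltransferase prmt1.S had 1551 TPM in explants and 2586 TPM in progeny, and both rows were under 2-fold. The copy cirbp.L lay on the other side of equality, with 6358 TPM in explants and 5757.5 TPM in progeny. Of the remaining low rows, the Z-disc row ldb3-like.1.L had 0.93 TPM in explants and 122 TPM in progeny, and klhl41.L, needed for myofibril assembly in fish and human muscle, had 3.4 TPM in explants and 223 TPM in progeny.

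The mid neurula comparison was set beside the same comparison at early neurula. There 2881 rows (10.9%) were higher in explants and 3410 rows (12.9%) lower. Of the 3158 rows higher at mid neurula, 2387 (75.6%) were also higher at early neurula, which is 82.9% of the early higher set. Of the 3589 lower rows, 2371 (66.1%) were also lower at early neurula, which is 69.5% of the early lower set. Opposite calls at the 2 stages were few, with 5 rows higher at mid neurula that had been lower and 7 rows lower that had been higher. At gastrula 581 rows (2.2%) were higher and 900 (3.42%) lower, and they included 180 rows higher and 385 rows lower at mid neurula in the same direction. A further 52 rows higher at mid neurula had been lower at gastrula, and 32 rows lower at mid neurula had been higher.

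**Figure D4:**
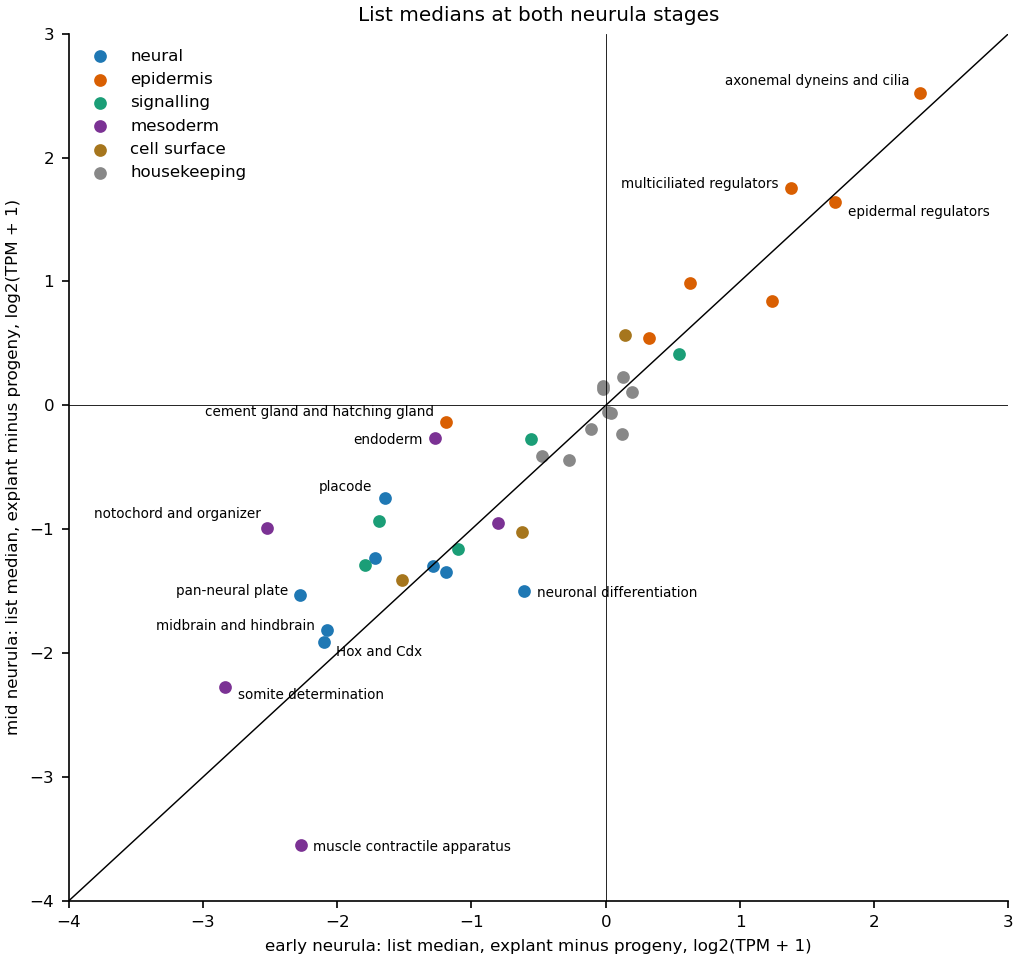
Each point is 1 of the 38 gene lists, with its median difference (explant minus progeny, log2(TPM + 1)) at mid neurula on the vertical axis and at early neurula on the horizontal axis, coloured by kind of list. The diagonal marks equal medians. The muscle and neuronal lists lie below the diagonal, with a wider median gap at mid neurula. The notochord, somite and pan-neural lists lie above it, with a narrower median gap.

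The lists differed in how their gap changed between the stages. For muscle the median was -2.27 at early neurula and -3.55 at mid neurula, and 21 rows were lower at mid neurula and not at early neurula. The explant sum of that list was 499 TPM at early neurula and 912 TPM at mid neurula. The progeny sum was 7952 TPM at early neurula and 18348 TPM at mid neurula. Single muscle rows did not all follow the list median. The log2 difference of actc1.L was -9.02 at early neurula and -5.28 at mid neurula, and that of myl1.S was -8.39 and -5.69. For pgam2.L it was -1.67 at early neurula and -5.08 at mid neurula. For neuronal genes the median was -0.61 at early neurula and -1.50 at mid neurula, and again 21 rows were lower at mid neurula alone. Neuronal tubulin tubb3.L had 0.0246 TPM in explants and 0.667 TPM in progeny at early neurula, far below its progeny level at mid neurula. Sox10 was alike, with sox10.S at 0.00852 TPM in explants and 1.26 TPM in progeny at early neurula.

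For other lists the gap was narrower at mid neurula. The notochord and organizer median was -2.52 at early neurula and -0.99 at mid neurula, and the number of lower rows was 52 at early neurula and 31 at mid neurula. Collagen col2a1.L had 0.564 TPM in explants and 109.7 TPM in progeny at early neurula, below the 20.2 TPM that explants had at mid neurula. Chordin chrd.S had 23 TPM in explants and 263 TPM in progeny at early neurula. Myogenic rows were low in explants at early neurula: myf5.S had 0.624 TPM in explants and 92.2 TPM in progeny at early neurula. There actc1.L had 1.39 TPM in explants and 1241 TPM in progeny, although the median gap of its muscle list was wider at mid neurula. The pan-neural median was -2.28 at early neurula and -1.53 at mid neurula. Outside that list, the eye field row rax.L also came closer. It had 7.72 TPM in explants and 129 TPM in progeny at early neurula, against 31.4 and 69.8 TPM at mid neurula. For endoderm the median was -1.27 at early neurula, against -0.26 at mid neurula.

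The epidermal lists differed in how far they moved between the stages. The cement and hatching gland median was -1.19 at early neurula and -0.13 at mid neurula (0.06 with median-of-ratios scaling), and its lower rows numbered 10 and then 3. For keratins the median was 1.24 at early neurula and 0.84 by mid neurula, where krt.S was listed at 0 in explants. The cilia median was 2.34 at early neurula and 2.52 at mid neurula, that of the epidermal regulators 1.71 and 1.65, and that of the multiciliated regulators 1.38 and 1.76. Intelectin itln1.L was an exception, with 1606 TPM in explants and 149 TPM in progeny at early neurula, while its progeny level at mid neurula was 1111 TPM. Sizzled szl.L had 1136 TPM in explants and 32.4 TPM in progeny at early neurula, both above their mid neurula levels.

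**Figure D5:**
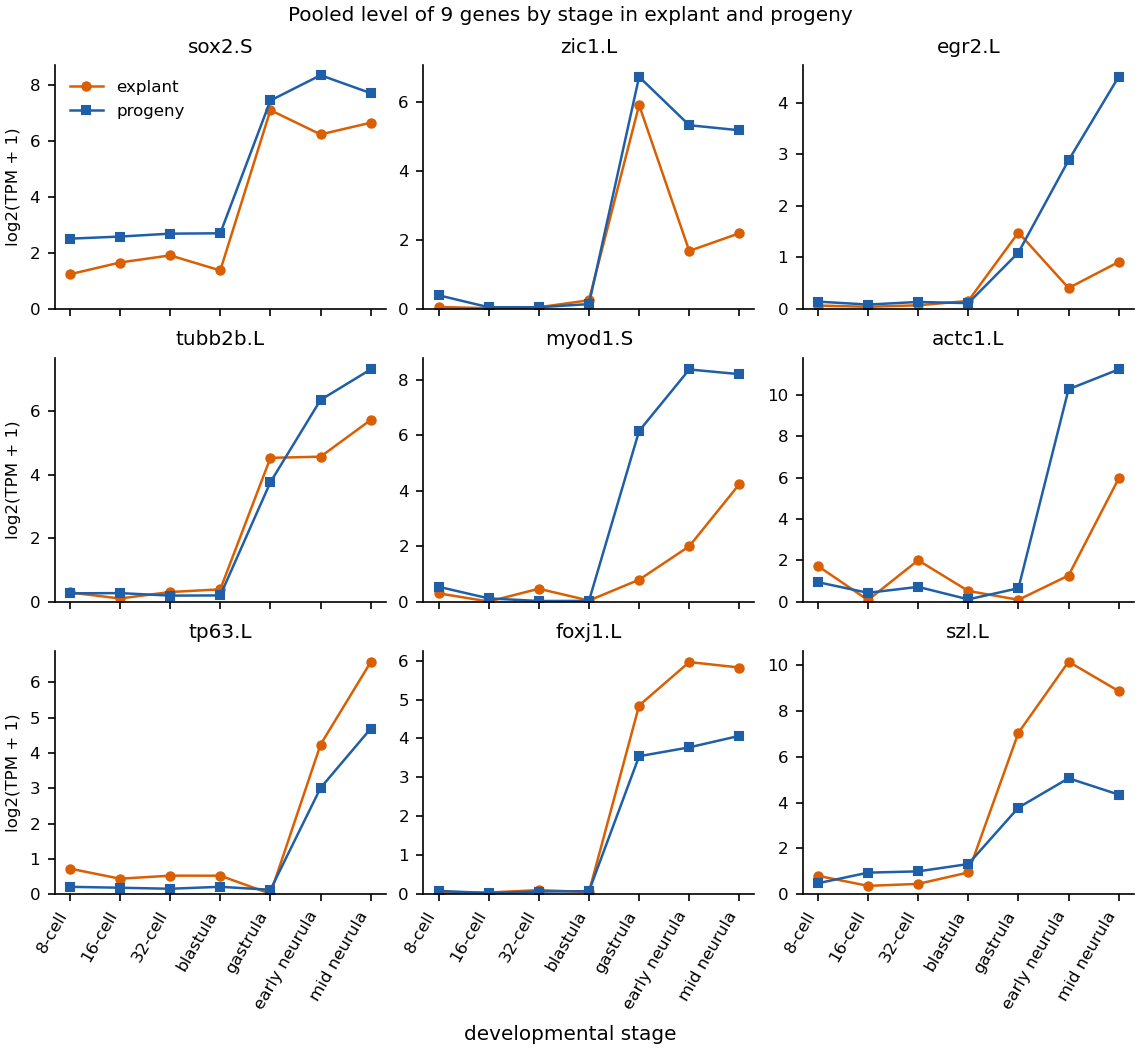
Pooled level as log2(TPM + 1) of 9 genes over the 7 stages, with explants as orange circles and progeny as blue squares, and 1 value per tissue and stage. The lines of sox2, zic1 and tubb2b lie within 1 unit at gastrula and further apart at early neurula, actc1 and myod1 are lower in explants at both neurula stages, and tp63, foxj1 and szl are higher in explants at both neurula stages.

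The paired copies of a gene gave an internal comparison, although reads of near-identical copies could have been shared between them. Of 6882 homeolog pairs, 367 were higher for both copies, 739 lower for both, and 36 moved in opposite directions. In 1354 pairs only 1 copy passed the size rule, and in 4386 pairs neither did. The median gap between the differences of a pair was 0.37 on the log2(TPM + 1) scale. Apart from rows at 0, the widest opposite pair was xepsin, with xepsin.L at 274 TPM in explants and 43 TPM in progeny and xepsin.S at 0.0729 TPM in explants and 7.92 TPM in progeny. The next was sidt1, with sidt1.L at 22.3 TPM in explants and 8.07 TPM in progeny and sidt1.S at 0.847 TPM in explants and 16 TPM in progeny. E-cadherin was among the others, with cdh1.L at 1.5 TPM in explants and 5.46 TPM in progeny, far below the level of cdh1.S.

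Rows without a gene symbol took a full part in the comparison. Of 7026 such rows, 13.5% were higher in explants and 10.1% lower, with a median of -0.00195. Of 19325 rows with a symbol, 11.5% were higher and 14.9% lower, with a median of -0.18. Of the rows without a symbol, 2 were listed at 7109.5 and 7082 TPM in explants and at 0 in progeny.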

How the data were processed

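RNA was measured by sequencing in Xenopus laevis explants and progeny at 7 stages. The deposited values are TPM, per the file headers, 1 column per tissue and stage for 3 samples each, in 2 tables of 44962 rows. How the authors combined the samples was not stated. The submitters' processing notes list TopHat, Bowtie2, Cufflinks and Cuffdiff without roles. The genome build and the use of strand in counting were not given in those notes or in the labels, so overlapping and antisense genes cannot be told apart. Each tissue has its own table, and whether the tables were made together was not stated. A level set across them rests on each column's scaling to the same total. TPM keeps no read depth, so the depth behind a value is unknown and no interval could be given. No column of another series was found.

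Rows were joined by name, kept at 1 TPM or more in 1 of 14 columns, and compared as log2(TPM + 1), explant minus progeny. With 1 pooled column per tissue no test, error or p-value exists, and a difference of at least 2-fold is a rule of size. Computation used Python 3.11.15, pandas 2.3.3, numpy 2.4.6 and matplotlib 3.10.9. The size rule was run on simulated columns with set folds and no noise, which checks its arithmetic and not its errors on real data. The 38 gene lists were matched by symbol, with 27 rows found through RefSeq synonyms, and 280 of 2298 symbols had no row.

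The members and lists were chosen with earlier results of these data known. Rows with a symbol and at least 5 TPM were named by a rule: the most extreme differences, TPM gains and losses, changes from early neurula and homeolog gaps, the extremes and the highest levels of each list, and a set of marker genes. Other list members in the text, many of them past 2-fold, did not come from this rule and were chosen after their values were seen. A few list members that count in these totals are not reported by name.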

Additional observations from a re-analysis of the deposited data

How the results depend on the processing

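No paired analysis was possible because each tissue has 1 pooled column per stage, and for the same reason leaving out a replicate was not run. Promoter motifs were not analysed here. The tissues carry no replicate spread and no read depth, so no difference has an error, and low values are the least certain. A pseudocount of 5 left 1971 rows higher in explants and 1654 lower. At 4-fold there were 1040 higher and 1011 lower. Median-of-ratios scaling centres the explant column on the progeny column, so the median over all rows of 0 that it gave follows from the method. With it there were 3799 higher and 3001 lower rows. Of the calls, 55.9% were then higher in explants, against 46.8% as deposited. A pseudocount of 0.1 gave 4253 higher and 5121 lower rows. The other settings, including rows at 0 left out, which was chosen after seeing the data, kept both counts within 1.5 times. Among list medians, that scaling turned the sign of the cement and hatching gland list to 0.06, of oxidative phosphorylation to 0.13 and of innate immunity to 0.06. A filter of 5 TPM turned the channel list to 0.20, and no filter turned the immunity list to 0.00765. As deposited, 16 lists had an absolute median of at least 1. Of these, 8 fell under 1 with a pseudocount of 5, 4 with no filter and 1 with median-of-ratios scaling. Other lists rose to at least 1: 4 with a pseudocount of 0.1, 3 with the 5 TPM filter, 3 with copies summed and 1 with the scaling. With L and S copies summed, xepsin changed to 2.40 on the log2 scale, against a lower xepsin.S alone. The sums for smc2.S at -0.42, eef1a1o.L at -2.75 and sidt1.L at -0.050 lay below 0, while each row alone was higher. In these sums the other copy sets the sign. Of 318 named rows, 17 fell under 2-fold with a pseudocount of 5, and 8 did so with median-of-ratios scaling. The lower calls of sox2.S (-1.06), rax.L (-1.13) and nrarp.S (-1.14) lay nearer to the 2-fold limit than the 0.20 shift of that scaling.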
